A study of Rattus norvegicus with 4 samples.

Results

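The second week after extracapsular lens extraction (ECLE) was examined by setting the array at 2 W against the 2 arrays at 1 W. A gene was described where its value at 2 W lay outside both values at 1 W. Each array was first divided by its mean intensity, values were put on the log2 scale, and a gene was represented by its brightest probe set, the group of probes directed at a transcript. Of 14217 genes with a symbol, 11241 met this rule (79.1%), of which 4081 were above (28.7%) and 7160 below (50.4%) both 1 W arrays, and 2976 lay between them. Counts below refer to the 10455 genes whose mean log2 level reached the 40th percentile of probe sets, called the filter, of which 8608 met the rule (82.3%). A further 2633 genes that met it were dimmer than this filter.

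In ECLE the lens capsule is opened and its content taken out, and the lens epithelial cells (LECs) that stay on the capsule can grow over it and opacify it, which is called posterior capsule opacification (PCO). The animals were female albino Sprague-Dawley rats with no genetic modification stated, operated at 7 weeks of age, and lens capsules with LECs were taken at 7 days (1 W, age 8 weeks) or 14 days (2 W, age 9 weeks). There were 2 arrays at 1 W, labeled as biological replicates 1 and 2, and 1 array at 2 W. A single array from day 0, taken when surgery was complete in rats of 7 weeks, is given beside them for orientation, and all groups had undergone the operation. The study's methods name more capsules at each time point than there are arrays here, and how they were divided over the arrays, pooled or singly, was not stated.

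The lens grows as epithelial cells near its equator leave the cell cycle and elongate into fiber cells. Fiber cells fill with crystallins, the soluble proteins that give the lens its refractive power, build a cytoskeleton of beaded filaments from filensin and phakinin, join through gap junctions and water channels, and later lose their organelles. LECs that remain after surgery can take this route, forming new fiber-like material, or turn into contractile, matrix-producing cells by epithelial-mesenchymal transition (EMT).

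The 2 W array was dimmer than the others, its median intensity being 31.9 where replicates 1 and 2 at 1 W had 45.2 and 46.7 and day 0 had 57.0. Intensities below are printed as deposited, and folds and differences are taken after the division by the array mean, which multiplies the ratio of 2 W to replicate 1 by 1.32 and to replicate 2 by 1.27. After it the median log2 difference of the 10455 genes, 2 W minus the mean of both 1 W arrays, was -0.22, and values are read against this shift. It was -0.07 when arrays were scaled by their medians and 0.02 by their 75th percentiles. For beta-actin, whose control probe sets report RNA quality, the 3' signal exceeded the 5' signal 1.61-fold at 2 W and 1.89-fold and 1.90-fold at 1 W. With 1 array at 2 W, the 2 W value has no replicate spread of its own. Many of the tissue's own markers were bright, with 10 of 14 measured crystallins among the brightest 1 percent of probe sets on each 1 W array. Others were dim at 1 W, such as *Crygb* with intensities of 39.8 and 0.76. Markers of lens epithelium held 0.423% and 0.425% of summed intensity at 1 W and 0.382% at 2 W.

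In 10455 genes, 2530 were above both 1 W arrays at 2 W (24.2%) and 6078 below both (58.1%). More than 2-fold beyond the nearer 1 W array were 163 genes on the higher side (1.56%) and 288 on the lower side (2.75%). Without the filter these were 632 of all genes (4.45%) and 728 (5.12%), and over the 18625 probe sets at or above it, unnamed ones included, the shares were 1.56% and 2.92%. The 2 arrays at 1 W themselves differed by a median of 0.18 log2 units, or 1.14-fold, and 501 of the genes (4.79%) differed more than 2-fold between them. The 163 higher genes had a median intensity of 142 at 1 W and 363 at 2 W, and none was below the median of the 2 W array. The 288 lower genes had medians of 111 and 31.4, and 146 of them were below the median of the 2 W array at 2 W. The rule and the filter both use the 2 W values, so these levels at 2 W follow in part from the selection. limma, fitted over all 18625 probe sets at or above the filter, called 0 higher and 0 lower after Benjamini-Hochberg adjustment (lowest adjusted p = 0.139). Unadjusted, p was under 0.05 for 1024 higher (5.5%) and 3048 lower (16.4%) probe sets. Its only residual degree of freedom came from the 2 arrays at 1 W, so its p-values measure the spread between these arrays alone and assume that the 2 W array varied alike. With arrays scaled by their medians limma called 158 probe sets higher and 51 lower. Only some of the genes that passed there are marked below, so a gene without a mark may have passed too.

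**Figure D1:**
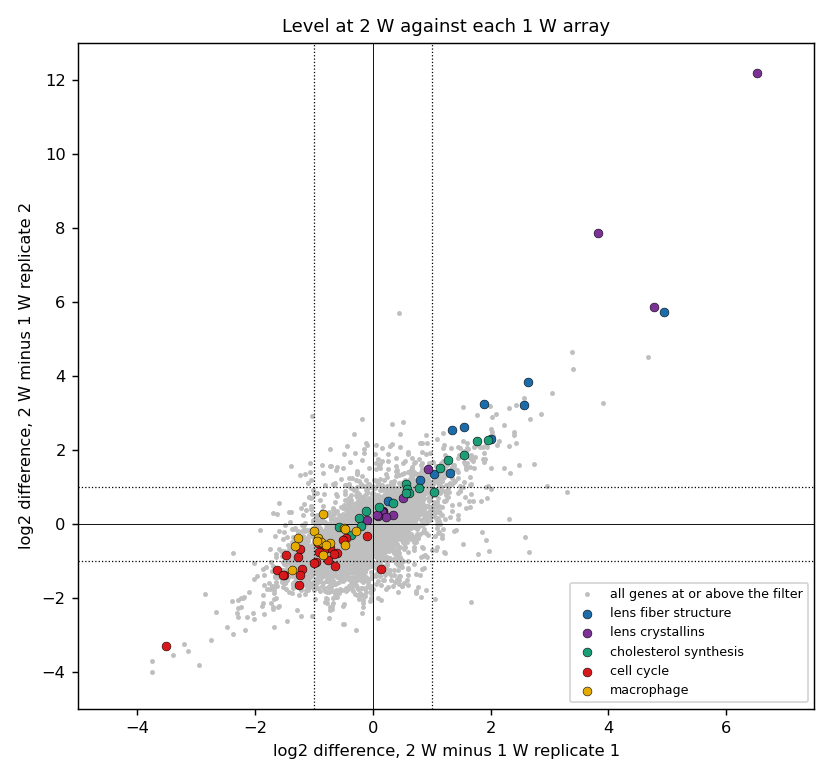
Log2 difference of each gene at or above the filter at 2 W against replicate 1 (horizontal axis) and replicate 2 (vertical axis) at 1 W, with dotted lines at 2-fold in each direction. Each grey point is a gene and coloured points are members of the named lists. Among the coloured points, lens fiber genes and 3 gamma crystallins lie farthest to the upper right, and Mcm5 is the red point at the lower left.

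Gamma crystallins are soluble proteins that accumulate in fiber cells, and 3 of them were among the 15 genes farthest above the 1 W arrays, *Crygb* ahead of all others. *Crygb* had an intensity of 39.8 on replicate 1 and 0.76 on replicate 2 at 1 W, and 2781 at 2 W, where day 0 had 2232. After scaling this was 92.2-fold above replicate 1, and no fold is given against the near-zero value of replicate 2. *Crygc* had intensities of 342 and 156 at 1 W and 7103 at 2 W, against 2938 at day 0. It was 27.4-fold above replicate 1 and 57.9-fold above replicate 2, with a mean log2 difference of 5.32 (standard error 0.48 from limma), and it passed limma under median scaling. *Crygd* had intensities of 681 and 40.2 at 1 W and 7327 at 2 W, against 5502 at day 0, and was 14.2-fold above replicate 1. For all 3 genes the 2 W array was above day 0 and both 1 W arrays were below it, with replicate 2 the lower of the 1 W pair. *Cryga* was under the filter with both of its probe sets, and both lay above the 1 W arrays. The one with the higher mean level had intensities of 19.2 and 20.7 at 1 W and 24.2 at 2 W, with 12.8 at day 0. The other had 1.48 and 2.41 at 1 W and 23.0 at 2 W, with 1318 at day 0, and was 3.60 log2 units above the nearer array, all 3 of these later values being dim. Gamma crystallins are paralogs, and whether a probe set also detects a neighbouring copy was not tested. *Cryge* and *Crygf* had no probe set with that symbol alone.

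The genes *Cryga* to *Crygd* lie next to each other on chromosome 9, and the 120 bases before their annotated starts are shown because the members that were farthest above 1 W share letters there. The sequences are from RefSeq (build GRCr8), read 5′ to 3′ on the minus strand, with CCCTTTTGTG and TATATA in capitals. The *Crygb* stretch is chr9:73957265-73957384, *Crygc* chr9:73947368-73947487 (of 2 annotated starts, the upstream one), *Crygd* chr9:73937410-73937529 and *Cryga*, dim at 1 W and 2 W, chr9:73978383-73978502.
Crygb: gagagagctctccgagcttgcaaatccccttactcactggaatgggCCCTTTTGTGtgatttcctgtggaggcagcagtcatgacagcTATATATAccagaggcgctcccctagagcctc
Crygc: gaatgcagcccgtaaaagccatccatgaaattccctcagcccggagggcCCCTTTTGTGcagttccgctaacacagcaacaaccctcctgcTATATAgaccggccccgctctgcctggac
Crygd: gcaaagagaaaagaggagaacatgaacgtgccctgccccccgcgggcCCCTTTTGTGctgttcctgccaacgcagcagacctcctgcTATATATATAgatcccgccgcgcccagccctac
Cryga: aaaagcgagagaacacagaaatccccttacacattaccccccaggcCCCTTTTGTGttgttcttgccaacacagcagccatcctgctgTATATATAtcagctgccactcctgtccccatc
In these stretches CCCTTTTGTG begins at positions -74, -71, -73 and -74 from the start in the order shown. This run of 10 letters is the longest that all 4 stretches share. Searched on both strands, it was in 21 of 33469 annotated promoters over the same length (0.0627%), 7 of them from the 6 gamma crystallin genes *Cryga* to *Crygf*. TATATA was in 903 (2.7%), and no copy of it overlaps the other motif in these 4 stretches. Both were chosen after the sequences were seen and mark letters, with no evidence of a factor that binds there. Of 20 lens fiber and gamma crystallin genes looked up, 19 had an entry and the other was *Hsf4*. CCCTTTTGTG was in 6 of them and TATATA in 7.

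The measured differences of the other crystallins were smaller, and most of them were read at intensities near the top of the range. The highest intensity of any probe set was 14184, and whether signals this bright were compressed or saturated was not tested. Of 14 measured crystallins, 13 were at or above the filter. Of these, 12 were above and 0 below both 1 W arrays, beside 24.2% and 58.1% of all genes. Their median log2 difference of 0.26 turned to -0.04 with quantile normalization and -0.11 with values as deposited. Over all genes the median was -0.22, but it was -0.05 in the brightest of 10 bins by mean level. *Crygn* had intensities of 5740 and 3792 at 1 W and 8354 at 2 W, 1.92-fold and 2.80-fold above the replicates. *Cryaa*, the alpha A chain and a chaperone, had intensities of 8439, 8741 and 8114, a log2 difference of 0.29 (standard error 0.11). *Cryba1*, of the beta crystallins, lay between the 1 W arrays. Of the 14, 13 were among the brightest 1 percent of probe sets at 2 W and 10 on each 1 W array. Summed over the 14 probe sets, crystallins held 1.47% and 1.33% of the total intensity at 1 W and 2.04% at 2 W.

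Genes of the lens fiber list, which holds structural genes and others, were higher at 2 W as a group. Of 12 measured genes, 11 were at or above the filter, all 11 lay above both 1 W arrays and 9 lay more than 2-fold above both, where 24.2% and 1.56% of all genes at or above the filter did. The list's median log2 difference was 2.08 beside -0.22 for all genes, and stayed between 1.55 and 2.53 in the settings compared. *Bfsp1*, which encodes the beaded filament protein filensin, had intensities of 213 and 121 at 1 W and 4987 at 2 W, with 790 at day 0. It was 30.9-fold and 52.6-fold above replicates 1 and 2, a mean log2 difference of 5.33 (standard error 0.35). Its partner phakinin, *Bfsp2*, went from 1699 and 1579 to 3201, a log2 difference of 1.34 (standard error 0.12). Both 1 W arrays were below 2 W for both filament genes, and the difference was larger for filensin. *Mip*, the fiber water channel aquaporin 0, had intensities of 2976 and 1139 at 1 W and 8357 at 2 W, and these 1 W arrays differed more from each other than for most members (log2 difference 2.56, standard error 0.58). *Gja3*, which encodes the fiber gap junction protein connexin 46, went from 2794 and 2183 to 4355. *Lim2*, a fiber membrane protein, and *Grifin*, a galectin-related lens protein, were above both arrays by less than 2-fold, with log2 differences of 1.00 and 0.43.

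Genes that act on RNA and transcription in fiber cells were also among them. *Hsf4*, a heat shock transcription factor of the lens, had intensities of 34.7 and 14.6 at 1 W and 163 at 2 W, 6.21-fold and 14.2-fold above the replicates. *Caprin2*, an RNA-binding protein of fiber cells, went from 582 and 363 to 2629 (log2 difference 2.89, standard error 0.30). *Tdrd7*, a tudor domain protein of RNA granules whose loss causes cataract, went from 1724 and 1356 to 5249 (log2 difference 2.15, standard error 0.17). The remaining members were *Tmod1*, which caps actin filaments in the membrane skeleton, from 70.6 and 32.7 to 157, and *Birc7*, an inhibitor of apoptosis, from 57.1 and 24.2 to 110. Replicate 1 was above replicate 2 for all 11 genes, by a median of 0.63 log2 units, and 2 W exceeded the higher of the pair each time. *Bfsp1* and *Caprin2* passed limma under median scaling. The list's median was 1.55 against replicate 1 and 2.53 against replicate 2. Summed over the 12 probe sets, the list held 0.394% and 0.294% of total intensity at 1 W, 0.913% at 2 W and 0.286% at day 0. These are values of whole capsules, in which more cells of a type and more RNA per cell cannot be told apart.

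**Figure D2:**
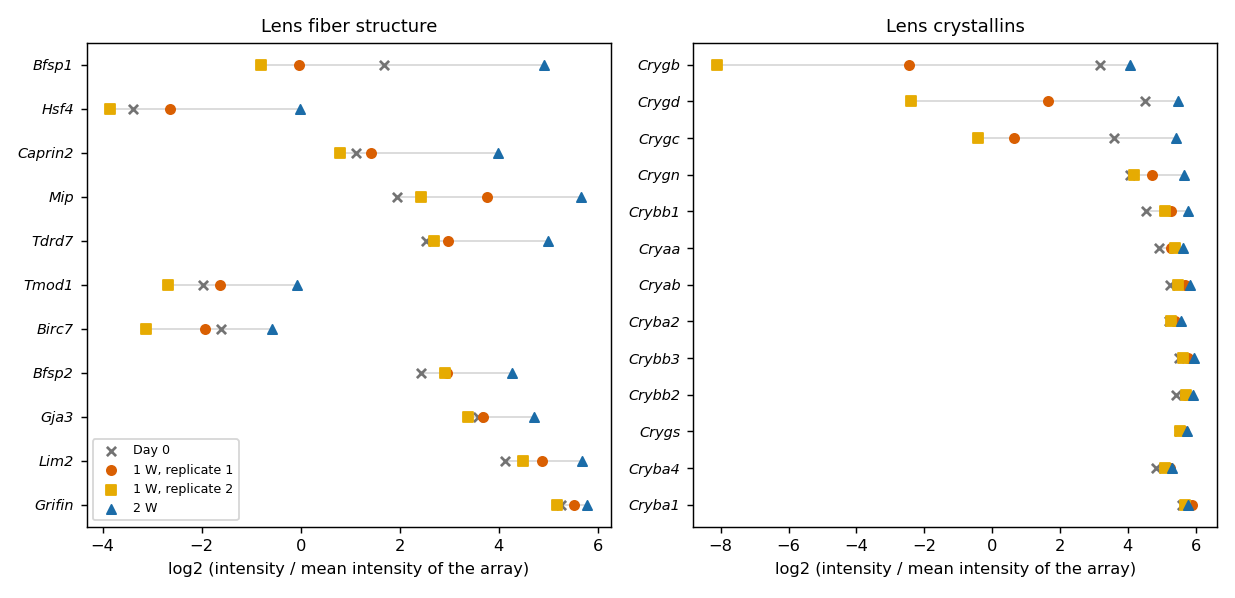
Level of each lens fiber gene (left) and crystallin (right) at or above the filter, as log2 of intensity over the mean of its array, on the arrays at day 0 (crosses), 1 W replicate 1 (circles), 1 W replicate 2 (squares) and 2 W (triangles). The 2 W triangle lies rightmost for all 11 fiber genes, and Crygb, Crygd and Crygc show the widest gaps among the crystallins while the alpha and beta chains lie close together.

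Several of the 15 genes farthest above 1 W are not in these lists. *Fam89a*, a gene of little-known function, had intensities of 34.1 and 37.2 at 1 W and 659 at 2 W (114 on the day 0 array), a log2 difference of 4.58 (standard error 0.23). *Lenep*, a gene first described in the lens epithelium, went from 277 and 155 to 2209, 10.5-fold and 18.2-fold above the replicates. *Ndrg1*, a gene induced in differentiation and stress, went from 1043 and 719 to 6481 (log2 difference 3.28, standard error 0.24). Both probe sets of *Ndrg1* lay above both 1 W arrays. *Fabp5*, an intracellular fatty acid carrier, had intensities of 2189 and 1331 at 1 W and 9968 at 2 W (5226 on the day 0 array). *Ctnna2*, which encodes alpha N-catenin, an actin link of cadherins, went from 267 and 146 to 1207. *Apba1*, a neuronal adaptor protein, went from 51.5 and 44.2 to 249, and *Spetex2l2*, of a testis-expressed family, from 494 and 198 to 3913. All of these 7 genes passed limma under median scaling.

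Genes named for neurons made up a mixed list, in which 3 members stood out. *Nefh*, the heavy neurofilament chain, had intensities of 410 and 369 at 1 W and 2258 at 2 W (146 on the day 0 array), with closely matching 1 W arrays (log2 difference 2.91, standard error 0.15). *Snhg11*, a long noncoding RNA, went from 12.2 and 18.2 to 138, and all 4 of its probe sets lay above both 1 W arrays. *Tubb3*, a beta tubulin of neurons, went from 26.4 and 30.2 to 52.7. Of 11 list members at or above the filter, 5 were above and 2 below both arrays, beside 24.2% and 58.1% of all genes. The other neurofilament chain at or above the filter, *Nefl*, lay between the 1 W arrays (13.5, 35.0 and 14.2), as did the synaptic gene *Snap25* (59.8, 245 and 67.6). The list's median of 0.50 was 0.85 against replicate 1 and -0.20 against replicate 2. *Ngfr*, the low-affinity nerve growth factor receptor, from the list of Schwann cell genes, went from 201 and 108 to 620.

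**Figure D3:**
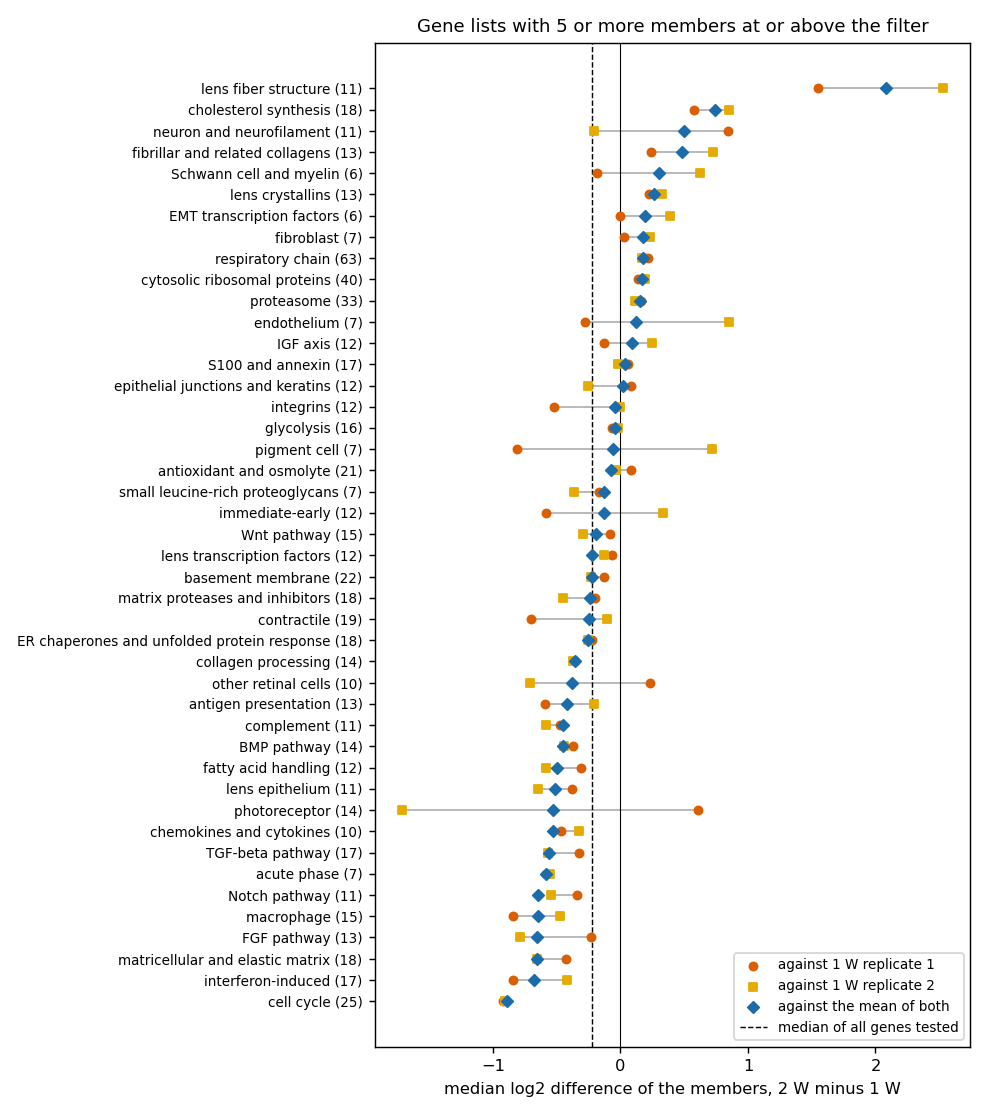
Median log2 difference at 2 W of the members of 44 gene lists, against replicate 1 (circles), replicate 2 (squares) and the mean of both (diamonds) at 1 W, with the number of members at or above the filter in brackets. The dashed line is the median of all genes tested, -0.22. Lens fiber structure lies at the top with 2.08 and the cell cycle at the bottom with -0.89, and long bars mark lists such as photoreceptor and pigment cell for which the 1 W arrays differed.

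Transcripts that mark the undifferentiated lens epithelium were mixed. Of 11 members, 6 were below and 3 above both 1 W arrays, beside 58.1% and 24.2% of all genes. Their median log2 difference was -0.51, and it became 0.01 when all probe sets of a gene were averaged. *Foxe3*, a forkhead factor that keeps the epithelium proliferating, had intensities of 1167 and 997 at 1 W and 361 at 2 W (1471 on the day 0 array), 2.45-fold and 2.17-fold lower than the replicates. *Atp1b1*, the beta subunit of the sodium pump, went from 1145 and 1324 to 400 (log2 difference -1.25, standard error 0.17). *Cdh1*, which encodes E-cadherin, had intensities of 3008 and 2485 at 1 W and 1250 at 2 W, although its 2 probe sets lay on opposite sides. *Pax6*, the master regulator of eye development, went from 3316 and 3283 to 1382, 0.86 log2 units beyond the nearer array. On the other side, *Sfrp1*, a secreted Wnt inhibitor, went from 1715 and 1445 to 2369, and *Dkk3* from 4523 and 4498 to 4705. Among 12 lens transcription factors, 5 were above and 6 below both arrays, beside 24.2% and 58.1% of all genes. *Gata3*, which is needed for cell cycle exit of fiber cells, had intensities of 335 and 431 at 1 W and 94.8 at 2 W (268 on the day 0 array), with both its probe sets below, and passed limma under median scaling. *Prox1* and *Maf*, factors that drive fiber differentiation, were above both arrays with log2 differences of 0.21 and 0.60.

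Enzymes of cholesterol synthesis were higher at 2 W. Of 18 members, 13 were above and 3 below both 1 W arrays, beside 24.2% and 58.1% of all genes. More than 2-fold above were 5 and more than 2-fold below 0, beside 1.56% and 2.75% of all genes. The median log2 difference was 0.74, above 0 in all settings compared (0.36 to 0.98). *Insig1*, which restrains sterol synthesis when sterols are plentiful and is itself a target of the sterol-sensing factor SREBP, had intensities of 683 and 533 at 1 W and 2010 at 2 W, 3.88-fold and 4.80-fold above the replicates. *Dhcr7*, which makes the last step to cholesterol, went from 633 and 438 to 1636 (log2 difference 2.01, standard error 0.24). *Idi1*, the isopentenyl diphosphate isomerase, went from 856 and 673 to 1902 with both probe sets above. *Fdft1*, squalene synthase, went from 192 and 136 to 352, and *Cyp51*, a demethylase of lanosterol, from 583 and 435 to 971. The members below both arrays were *Srebf2*, which encodes a sterol-sensing transcription factor, *Stard4*, a sterol carrier, and *Ebp*, a sterol isomerase, at log2 differences of -0.33, -0.13 and -0.34. The list's median was 0.58 against replicate 1 and 0.85 against replicate 2. Of 12 fatty acid genes, 3 were above and 9 below both arrays, beside 24.2% and 58.1% of all genes. There *Fabp5* was 6.01-fold and 9.53-fold above the replicates, while *Fabp3*, the heart-type carrier, had intensities of 45.8 and 57.8 at 1 W and 5.14 at 2 W.

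Antioxidant and osmolyte genes were split, with 7 of 21 above and 6 below both arrays, beside 24.2% and 58.1% of all genes. Their median was -0.08, and it was above 0 under median (0.08) and 75th percentile (0.16) scaling. Both subunits of glutamate-cysteine ligase, the rate-limiting enzyme of glutathione synthesis, were higher. The catalytic subunit *Gclc* had intensities of 325 and 215 at 1 W and 995 at 2 W (log2 difference 2.29, standard error 0.27), and the modifier subunit *Gclm* went from 388 and 242 to 686. In contrast *Nqo1* and *Txnrd1*, enzymes commonly induced in oxidative stress, were below both arrays with log2 differences of -0.88 and -0.72. *S100a4*, a calcium-binding protein linked to cell motility, went from 4365 and 3620 to 8544 and passed limma under median scaling.

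Genes of DNA replication and mitosis were lower at 2 W almost throughout. Of 25 members at or above the filter, 24 lay below both 1 W arrays and 0 above, 7 by more than 2-fold, where 58.1% and 2.75% of all genes at or above the filter did. The median log2 difference was -0.89, and it was below 0 in all settings compared (-1.26 to -0.65). *Mcm5*, a subunit of the replicative helicase, had intensities of 93.5 and 78.7 at 1 W and 6.25 at 2 W (83.6 on the day 0 array), 11.3-fold and 9.89-fold lower than the replicates, and passed limma under median scaling. Its partners *Mcm2* and *Mcm6* had log2 differences of -1.03 and -0.87, and *Mcm4* went from 224 and 226 to 86.5. *Mcm5* was read from 1 probe set, whose 2 W intensity was below the median of its array. So were those of other members, such as *Ccna2* (15.6) and *Bub1b* (11.2), and whether such values were above background is unknown. *Mki67*, the proliferation marker Ki-67, went from 156 and 138 to 41.7, 2.83-fold and 2.60-fold lower. *Ccna2*, cyclin A2, went from 59.1 and 52.1 to 15.6, and *Top2a*, topoisomerase II alpha, from 134 and 131 to 44.2. *Bub1b* and *Cenpf*, which act at the kinetochore, had log2 differences of -1.45 and -1.43. *Pcna*, the sliding clamp of DNA polymerase, went from 1240 and 1103 to 528 (log2 difference -0.77, standard error 0.13). The exception was *Ccne2*, a G1 cyclin, for which the 1 W arrays differed (40.5 and 99.3, with 33.7 at 2 W). On the day 0 array these genes had intensities near those of 1 W, as for *Mki67* (197) and *Pcna* (1167). The list's median was -0.92 against replicate 1 and -0.91 against replicate 2.

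**Figure D4:**
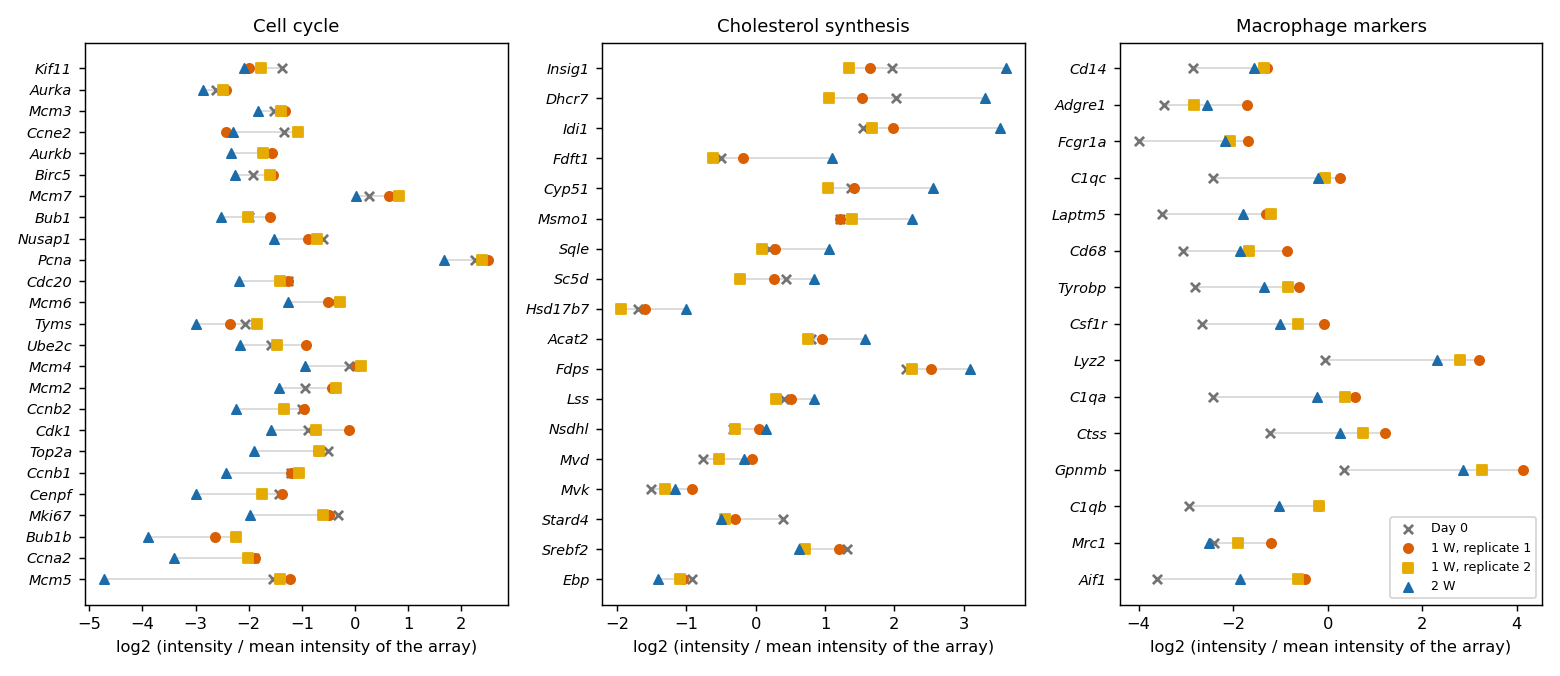
Level of the members at or above the filter of the lists cell cycle, cholesterol synthesis and macrophage markers, as log2 of intensity over the mean of its array, on the arrays at day 0 (crosses), 1 W replicate 1 (circles), 1 W replicate 2 (squares) and 2 W (triangles). In the cell cycle panel 24 of 25 triangles lie left of both 1 W marks, while 13 of 18 cholesterol triangles lie to their right. Macrophage triangles lie left of the 1 W marks for 14 of 15 genes and right of the day 0 cross for 14 of 15.

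The genes farthest below 1 W were dim on the 2 W array. *Gtpbp6*, a GTP-binding protein, had intensities of 67.5 and 77.7 at 1 W and 3.82 at 2 W, and 2 of its 4 probe sets lay below and 1 above both arrays. *B4galt7*, a galactosyltransferase that starts glycosaminoglycan chains, went from 68.9 and 64.6 to 3.87, and *Luzp1*, a leucine zipper protein, from 110 and 118 to 7.96. *Per1*, a gene of the circadian clock, went from 46.0 and 81.5 to 4.50. *Coro1a*, an actin regulator of leukocytes, had intensities of 109 and 87.6 at 1 W and 13.1 at 2 W (23.1 on the day 0 array). Of the 288 genes more than 2-fold lower, 24 had an intensity under 10 at 2 W, while 0 of the 163 higher genes did. The rule and the filter both use the 2 W value, so this contrast follows in part from how the genes were chosen. With genes in 10 bins of equal size by mean level, the share more than 2-fold lower went from 6.12% in the dimmest bin to 1.44% in the brightest, and the share more than 2-fold higher from 2.20% through 0.382% in the fifth bin to 3.06%. No detection calls were used, so whether these dim values are above background is unknown.

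Second probe sets of the same gene gave a further measure, read from values other than those that placed a gene in either set. Their rank by brightness and their own filter also use the 2 W value, so the counts are not free of selection. Of the 163 higher genes, 39 had a second probe set at or above the filter, which lay above both 1 W arrays for 34, more than 2-fold above for 22 and below both for 2. Of the 288 lower genes, 62 had one, which lay below both for 53, more than 2-fold below for 10 and above both for 3. Over all 2921 genes with such a probe set, 27.0% of the second probe sets lay above and 52.7% below both arrays, and 1.54% and 2.84% by more than 2-fold. They were read from the same 3 arrays, so they repeat the measurement of a transcript and not of an animal.

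Macrophage markers lay below their 1 W values and, for 14 of 15, above the day 0 array. Of 15 macrophage markers at or above the filter, 14 were below both 1 W arrays and 0 above, 1 by more than 2-fold, where 58.1% of all genes were below and 2.75% by more than 2-fold. The median log2 difference was -0.65 beside -0.22 for all genes, and negative in all settings compared. The gene more than 2-fold below, *Aif1*, a calcium-binding protein of macrophages, had intensities of 155 and 136 at 1 W and 45.3 at 2 W by its brighter probe set, while its second one lay above both arrays. *Lyz2*, lysozyme, went from 2005 and 1472 to 826, with 235 at day 0, and *C1qb*, of the first complement component, from 191 and 186 to 80.7, with 32.0 at day 0. Replicate 1 was above replicate 2 by a median of 0.37 log2 units over this list. The 19 measured markers held 0.122% and 0.0814% of total intensity at 1 W, 0.0597% at 2 W and 0.014% at day 0.

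Interferon-induced genes gave 13 of 17 below both 1 W arrays and 0 above, beside 58.1% and 24.2% of all genes, with a median of -0.67. *Ifih1*, a sensor of double-stranded RNA, went from 53.7 and 45.6 to 11.3, and *Mx1*, an antiviral GTPase, from 97.5 and 74.2 to 24.6. The 1 W arrays themselves differed by a median of 0.73 log2 units in this list, replicate 1 being the higher. For antigen presentation and complement the share of genes below both arrays was near the 58.1% of all genes. Of 13 genes of antigen presentation, 7 were below and 1 above (median -0.42), with *RT1-DMb*, which helps load peptides on MHC class II, from 232 and 229 to 85.0. For complement the counts were 7 and 2 of 11 (median -0.45), and *Serping1*, the C1 inhibitor, went from 1090 and 1026 to 457. The chemokine *Cxcl12* went from 437 and 553 to 156 by its brightest probe set, more than 2-fold below both arrays, and 2 of its 3 probe sets lay below both. Of 13 measured lymphocyte and 6 neutrophil markers, 1 of each was at or above the filter, *Lck* and *Lcn2*. *Lcn2*, lipocalin 2, had 108 and 359 at 1 W and 48.5 at 2 W.

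Matrix genes split by type. Of 13 fibrillar and related collagens, 8 were above and 5 below both 1 W arrays, beside 24.2% and 58.1% of all genes. Their median log2 difference of 0.48 was positive in all settings compared. *Col12a1*, which associates with collagen fibrils, had intensities of 137 and 69.8 at 1 W and 240 at 2 W (31.9 on the day 0 array), and all 3 of its probe sets lay above. *Col1a1*, *Col3a1* and *Col6a3* had log2 differences of 0.89, 1.11 and 1.39. *Col11a1*, which nucleates fibrils, went the other way from 900 and 1116 to 219 with all 3 probe sets below (log2 difference -1.82, standard error 0.20), and passed limma under median scaling. *Col5a3* went from 56.3 and 88.5 to 9.47. Among 22 basement membrane genes, which build the capsule itself, 11 were below and 4 above both arrays, beside 58.1% and 24.2% of all genes. Their median equalled that of all genes at -0.22 and turned to 0.02 under 75th percentile scaling. *Lama1*, the laminin chain of embryonic basement membranes, had intensities of 694 and 626 at 1 W and 204 at 2 W (901 on the day 0 array). *Col4a1* and *Col4a2*, the main chains of capsular collagen, had log2 differences of 0.05 and 0.00.

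Among other matrix genes the counts are read against 58.1% below and 24.2% above over all genes. Of 18 matricellular and elastic matrix genes, 12 were below and 4 above (median -0.66), and of 14 genes of collagen processing, 11 and 1 (median -0.35), with *Plod2*, a collagen lysyl hydroxylase, from 1923 and 1829 to 779. Of 18 matrix proteases and inhibitors, 9 were below and 4 above. *Plau*, urokinase, had intensities of 128 and 175 at 1 W and 37.4 at 2 W (23.1 on the day 0 array). *Adamts9*, a secreted metalloprotease, went from 61.4 and 128 to 14.5 by its brighter probe set, while its second one lay between the 1 W arrays. *Fn1*, fibronectin, went from 979 and 915 to 469, 1.58-fold and 1.53-fold lower. *Dcn*, decorin, did not meet the rule, since its 2 W intensity of 2833 lay between 4238 on replicate 1 and 506 on replicate 2. Of 7 small leucine-rich proteoglycans, 2 were below both arrays and 0 above.

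Contractile and EMT genes were mixed, and for many of them the 1 W arrays were far apart. Of 19 contractile genes, 10 were below and 3 above both arrays, beside 58.1% and 24.2% of all genes. Their median was -0.25, near the -0.22 of all genes, and it was -0.70 against replicate 1 and -0.11 against replicate 2. *Tagln*, transgelin, had intensities of 1513 and 1195 at 1 W and 456 at 2 W (25.1 on the day 0 array), 2.52-fold and 2.06-fold lower. *Tpm1*, tropomyosin 1, went from 1180 and 1298 to 490 by its brightest probe set, but 3 of its 7 probe sets lay above and 2 below both arrays. *Tpm2* went from 481 and 118 to 113 and, after scaling, lay between the 1 W arrays. *Myh11*, smooth muscle myosin, also lay between them (649, 81.1 and 187). *Pdlim7*, a PDZ and LIM domain protein of actin fibers, was the member more than 2-fold higher, from 380 and 356 to 871 (log2 difference 1.62, standard error 0.14), although its 2 probe sets lay on opposite sides. *Runx1*, which encodes a transcription factor needed to form blood cells, went from 198 and 231 to 91.2 with both probe sets below, and the matrix protein gene *Tgfbi* from 292 and 194 to 114. Of 6 EMT transcription factors, 3 were above and 2 below both arrays, beside 24.2% and 58.1% of all genes. *Zeb1* and *Zeb2* had log2 differences of -0.16 and 0.05.

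Signaling lists are likewise read against the 58.1% of all genes below and the 24.2% above both arrays. In the TGFβ pathway 11 of 17 were below and 3 above (median -0.56), with *Ltbp3*, which holds latent TGFβ in the matrix, from 690 and 690 to 224. The BMP list gave 10 and 2 of 14 (median -0.45), the FGF list 9 and 2 of 13 (-0.65) and the Notch list 9 and 1 of 11 (-0.65), and these medians were negative in all settings compared. The receptor *Fgfr3* was an exception, from 1601 and 1193 to 1439, 1.19-fold and 1.53-fold above the replicates. The Wnt list was split at 8 below and 6 above of 15, and its median of -0.19 turned to 0.05 under 75th percentile scaling and quantile normalization. Its ligands *Wnt5b*, from 50.6 and 56.1 to 190, and *Wnt7a*, from 101 and 43.1 to 304, were more than 2-fold higher. *Sfrp2*, a secreted Wnt modulator, had intensities of 272 and 205 at 1 W and 73.7 at 2 W (32.1 on the day 0 array). The IGF list was even, with 4 of 12 on each side.

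Markers of photoreceptors and pigment cells differed between the 1 W arrays more than between the weeks. Of 14 photoreceptor markers at or above the filter, 11 lay between the 1 W arrays. Below both were 3 and above both 0, beside 58.1% and 24.2% of all genes. Their median was 0.61 against replicate 1 and -1.71 against replicate 2. Summed over the 19 measured, they held 0.0249% and 0.108% of total intensity on replicates 1 and 2, 0.0338% at 2 W and 0.25% at day 0. *Sag*, rod arrestin, had intensities of 344 and 992 at 1 W and 211 at 2 W. All 7 pigment cell markers lay between the 1 W arrays, with summed shares of 0.218%, 0.0779% and 0.12%, for example *Dct*, dopachrome tautomerase, at 5446, 1553 and 2152. The median log2 difference of replicate 1 minus replicate 2 was -2.12 for photoreceptor and 1.76 for pigment cell markers, and 0.63, 0.32 and 0.07 for the lens fiber, cholesterol and cell cycle lists. What part other tissue on the capsules had in the differences was not tested.

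Of markers of cells that a capsule could also carry, 7 of endothelium (1 above, 1 below both arrays), 4 of skeletal muscle (2 and 2), 6 of Schwann cells (3 and 2), 7 of fibroblasts (4 and 2), 10 of other retinal cells (1 and 4), 2 of corneal and conjunctival epithelium (1 and 1) and 1 of red blood cells (1 and 0) were at or above the filter. Glycolytic genes gave 5 above and 8 below both arrays of 16, immediate-early genes 3 and 3 of 12, genes of endoplasmic reticulum chaperones and the unfolded protein response 4 and 13 of 18, and acute phase genes 1 and 6 of 7. S100 and annexin genes gave 7 and 7 of 17, integrins 2 and 5 of 12, epithelial junction and keratin genes 4 and 4 of 12, and chemokines and cytokines 1 and 5 of 10. These counts are read against the 24.2% of all genes above and the 58.1% below both arrays. None of these lists had more than 1 member over 2-fold beyond both arrays in a direction.

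Genes that serve all cells differed by small amounts, though more of them lay above both arrays than the 24.2% of all genes. The median log2 difference of all genes depended on level, being -0.32 in the fifth of 10 bins and -0.05 in the brightest. Shares above and below both arrays were not taken by level. Of 40 cytosolic ribosomal proteins, 32 were above and 5 below both arrays (median 0.17), of 63 respiratory chain subunits 43 and 13 (0.18), and of 33 proteasome subunits 18 and 11 (0.16), none by more than 2-fold. These 3 medians turned to -0.20, -0.20 and -0.22 with values as deposited, and that of ribosomal proteins to -0.05 with quantile normalization. Near the boundary of the rule values were dense, with 552 genes less than 0.1 log2 units above and 852 less than 0.1 below the nearer array. *Snap29* (111 at 2 W against 147 and 130) was the gene nearest to it inside on the higher side after scaling and *Smg5* on the lower side. *Rbm24* and *Fbxo10* were the nearest left out.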

How the data were processed

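RNA of rat lens capsules with LECs was labeled and hybridized by the authors to Affymetrix arrays. Probe set values were made with Affymetrix Expression Console per the labels, and the authors deposited linear intensities. The study's methods describe dividing each array by control values or by its average intensity, but array means of the deposited values ran from 165 to 244, so they were not at a common average. The summary algorithm was not stated. From the deposited values, 57 control probe sets were left out and each array was divided by its mean. Of 31042 probe sets, 20826 had 1 symbol in the platform annotation, 436 several and 9780 none, and 20758 of the single symbols matched RefSeq (GRCr8).

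The filter kept probe sets whose mean log2 value reached the 40th percentile, and these entered limma 3.58.1 (R 4.3.3; 3 groups on 4 arrays, intensity trend, 1 residual and 3.12 prior degrees of freedom, two-sided, Benjamini-Hochberg, threshold 0.05). limma was also run on simulated arrays whose noise was taken from the spread of the 1 W arrays. That run cannot show whether the 2 W array varied alike. Tables and figures used Python 3.11.15, numpy 2.4.6, pandas 2.3.3 and matplotlib 3.10.9. A gene list was described by its counts and median, without a test. Named genes were the 15 farthest beyond both 1 W arrays in each direction, up to 3 members in each direction more than 2-fold beyond (otherwise the 2 brightest) of each of 49 gene lists, genes the paper names from the arrays and the genes at the boundary. Other list members were named after their values were seen. Members and lists were chosen with earlier results of these data known. Precision is limited by the number of arrays. Alternatives were median, 75th percentile and quantile scaling, no scaling, a floor at the 20th percentile, other filters, limma without trend or robust, all probe sets of a gene, and each 1 W array left out.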

Additional observations from a re-analysis of the deposited data

How the results depend on the processing

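limma called 0 probe sets with the settings not named here, 158 higher and 51 lower with median scaling, and 193 higher and 4228 lower with values as deposited. Genes above both 1 W arrays numbered 2530, and 4332 under 75th percentile scaling, 854 as deposited, 4081 without a filter and 3372 to 3535 when a 1 W replicate was left out. Those below numbered 6078, and 3925 under 75th percentile scaling and 6920 to 7083 with a replicate left out. Genes more than 2-fold higher (163) became 293 under 75th percentile scaling, 81 as deposited, 632 without a filter and 360 and 256 without replicate 1 and replicate 2. Genes more than 2-fold lower (288) became 166 with median, 114 with 75th percentile and 167 with quantile scaling, 1249 as deposited, 728 without a filter, 158 with a 60th percentile filter and 883 and 475 without replicate 1 and replicate 2. Median scaling kept 163 of the 163 higher and 166 of the 288 lower genes. Lists with a median above 0 numbered 18, 29 under 75th percentile scaling, 5 as deposited and 17 without either replicate, and those above the median of all genes 28, between 22 and 29 in the other settings. No named gene more than 2-fold beyond both 1 W arrays turned its direction in the settings compared. The cause of these changes was not tested. limma was not run with a 1 W replicate left out, since no residual degree of freedom is left. No paired analysis was possible because only the 1 W arrays carry replicate numbers. No background measure was used, so dim probe sets give the least certain values.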

Other observations

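Some single genes outside the lists are given here, chosen after their values were seen, and stand for no group. *Gss*, glutathione synthetase, had intensities of 930 and 810 at 1 W and 1425 at 2 W, and *Chac1*, which degrades glutathione, 62.8, 60.9 and 119, both more than 2-fold above both 1 W arrays after scaling. The cystine transporter *Slc7a11* lay below both (588, 691 and 263). *Sptbn1*, a beta spectrin, went from 2269 and 2004 to 5028 with all 4 probe sets above both arrays, *Sptb*, the erythroid beta spectrin, from 51.4 and 57.0 to 129 with all 3, and *Epb41*, protein 4.1, from 486 and 444 to 874. *Tubb2a*, a beta tubulin, went from 1720 and 1603 to 3857, and *Ccng1*, cyclin G1, from 1123 and 1003 to 3748.

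Other genes chosen in the same way were more than 2-fold below both 1 W arrays. *Kif23* and *Prc1*, which build the central spindle, went from 71.4 and 87.5 to 14.7 and from 136 and 133 to 32.5. *Melk*, a kinase of dividing cells, went from 74.5 and 60.6 to 11.5, and *Ccnd1*, the G1 cyclin D1, from 1005 and 924 to 320 with all 3 probe sets below, against 393 at day 0.

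Of 4214 probe sets at or above the filter without a single symbol, 66 were more than 2-fold above (1.57%) and 136 below both 1 W arrays (3.23%).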
